A study of Rattus norvegicus with 12 samples.

Results

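The insulin-like growth factor (IGF) genes followed here are 10 genes, the ligands Igf1 and Igf2, the receptors Igf1r and Igf2r, and the binding proteins Igfbp2, Igfbp3, Igfbp4, Igfbp5, Igfbp6 and Igfbp7. They were taken by symbol from read-count files that list 17172 genes, and all 10 were found and passed the expression filter that left 11750 genes for testing. The libraries came from ventral dentate gyrus of male Sprague-Dawley rats of the Flinders Resistant Line (FRL) or the Flinders Sensitive Line (FSL), a line kept as a model of depression, with 3 libraries in each of 4 groups. FRL vehicle and FSL vehicle rats drank tap water. LAC non-responder and LAC responder rats were all FSL and had L-acetyl-carnitine (LAC), an acetylated carrier of fatty acids, in their water (0.3%, w/v). They drank it over 7 days, a daily dose near 210 mg/kg. The labels give no age, do not say whether 1 library is 1 rat, and do not say how response was scored. No FRL rats were given LAC and the FSL vehicle rats were not divided by response, so whatever set responders apart before treatment cannot be told apart from what LAC did.

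IGF1 and IGF2 are small secreted hormones that signal through IGF1R, a tyrosine kinase close to the insulin receptor. IGF2R is the mannose 6-phosphate receptor, which carries enzymes to the lysosome and removes IGF2 from the cell surface. The binding proteins hold most IGF outside cells and set how much reaches the receptors. In adult rodent brain Igf2 is known mainly from the leptomeninges and the choroid plexus, where Igfbp2 is made too. Igf2 is an imprinted gene in most tissues.

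Counts in genes came to 5.91 M to 8.14 M per library, so that 3 counts, taken as the detection floor, stand for 0.367 to 0.511 counts per 1000000 gene counts (CPM). The floor covers counting error only. Dentate granule neuron markers were present in all 12 libraries (7 of 8 listed genes in the files, 5 past the filter, none at 0 in all libraries, summed level 261 to 498 CPM). Their defining factor Prox1, however, reached just 10.4 CPM in FRL vehicle 2 and 9.18 CPM in LAC responder 1, against 51.6 to 129 CPM in the other 10. C1ql2 was low in the same libraries (4.53 and 3.31 CPM, against 29.8 to 59.0 CPM in the other 10), and Trpc6 in LAC responder 1 (16.5 CPM). Calb1 (120 and 192 CPM) and Pdzd2 (80.9 and 94.0 CPM) were not low there. LAC responder 1 also stood apart in the sum of 5 thalamic markers, at 552 CPM against 83.9 to 178 CPM in the 3 other groups. Slc17a6 (274 CPM), Tcf7l2 (156 CPM) and Calb2 (99.9 CPM) were high there. Prkcd (18.0 CPM) and Lef1 (4.16 CPM) were not, and lay within the range of the other libraries. FSL vehicle 1, FSL vehicle 3 and LAC non-responder 1 stood apart in choroid plexus markers, and FSL vehicle 3 in meningeal markers. Values without 1 or more of these libraries are given below for Igf2, Igfbp2 and some of the other genes. The files come from whole tissue, in which fewer cells of a type and less RNA per cell cannot be told apart.

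Igf2 and Igfbp2 varied far more between libraries than the other 8 genes. Igf2 stood at 77.3, 146 and 73.2 CPM in FRL vehicle 1, 2 and 3. In FSL vehicle it stood at 138, 324 and 1229 CPM. LAC non-responders had 241, 227 and 256 CPM, the tightest of the 4 groups for this gene, and LAC responders had 82.1, 29.9 and 32.6 CPM. FSL vehicle 3 was the highest library and LAC responder 2 the lowest, 41.2-fold apart. All 3 responder libraries lay below all FSL vehicle and all non-responder libraries, while FRL vehicle overlapped both FSL vehicle and responders. The order of the group means was FSL vehicle (564 ± 584 CPM, SD, n = 3), LAC non-responder (241 ± 14.2), FRL vehicle (98.7 ± 40.7) and LAC responder (48.2 ± 29.4). The SD of FSL vehicle was larger than its mean.

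Igfbp2, a binding protein abundant in cerebrospinal fluid, followed the same order. FRL vehicle 1, 2 and 3 had 24.8, 58.2 and 11.7 CPM, and FSL vehicle 60.5, 136 and 306 CPM. LAC non-responders had 129, 58.5 and 57.3 CPM and LAC responders 29.0, 7.68 and 13.1 CPM. The extremes were again FSL vehicle 3 and LAC responder 2, 39.9-fold apart. Group means were 168 ± 126 CPM in FSL vehicle, 81.6 ± 40.9 in LAC non-responders, 31.6 ± 24.0 in FRL vehicle and 16.6 ± 11.1 in LAC responders (SD, n = 3 each). All FSL vehicle libraries were above all FRL vehicle libraries, and responders were below both other FSL groups without overlap.

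**Figure D1:**
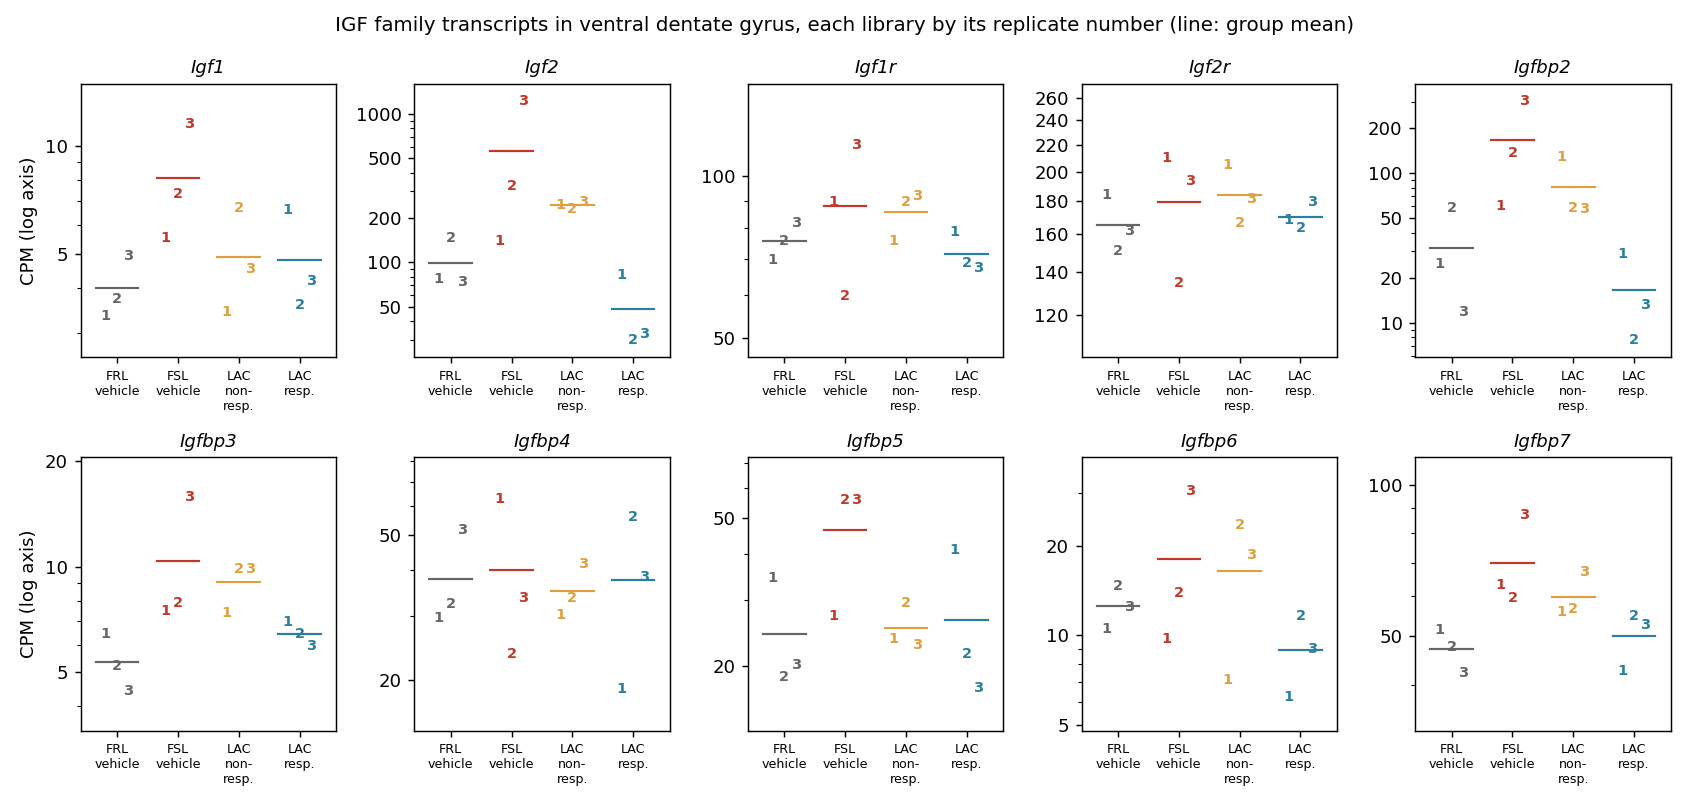
Level of each of the 10 IGF genes (CPM on a log axis, 1 panel per gene with its own range) in every library, drawn as its replicate number, with a line at the group mean. Igf2 and Igfbp2 span 41.2-fold and 39.9-fold over the 12 libraries, while Igf2r spans 1.56-fold.

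The promoters of Igf2 and Igfbp2 are shown because the 2 transcripts moved together over libraries. RefSeq lists 2 start sites for Igf2 and 1 for Igfbp2, and each window holds the 250 bases before and the 50 after the start on assembly GRCr8, a later build than the rn5 named in the submitters' processing notes. Capitals mark the GC box GGGCGG, read on either strand, a binding motif of the Sp family of factors. The windows are Igf2 upstream start (chr1:207253931-207254230, minus strand), Igf2 downstream start (chr1:207250426-207250725, minus strand) and Igfbp2 (chr9:81864561-81864860, plus strand), each written 5′ to 3′.
Igf2 upstream start: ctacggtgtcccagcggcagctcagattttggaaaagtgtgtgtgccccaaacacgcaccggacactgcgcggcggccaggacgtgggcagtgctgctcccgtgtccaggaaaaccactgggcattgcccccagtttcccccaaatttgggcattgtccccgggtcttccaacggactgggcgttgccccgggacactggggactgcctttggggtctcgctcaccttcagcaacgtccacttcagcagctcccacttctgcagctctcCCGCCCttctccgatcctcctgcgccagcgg
Igf2 downstream start: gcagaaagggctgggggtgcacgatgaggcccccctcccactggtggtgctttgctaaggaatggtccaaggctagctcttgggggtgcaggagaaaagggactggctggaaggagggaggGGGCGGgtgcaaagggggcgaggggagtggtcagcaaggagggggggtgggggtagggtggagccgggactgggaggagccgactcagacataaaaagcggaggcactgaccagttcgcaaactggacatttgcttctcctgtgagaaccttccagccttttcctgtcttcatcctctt
Igfbp2: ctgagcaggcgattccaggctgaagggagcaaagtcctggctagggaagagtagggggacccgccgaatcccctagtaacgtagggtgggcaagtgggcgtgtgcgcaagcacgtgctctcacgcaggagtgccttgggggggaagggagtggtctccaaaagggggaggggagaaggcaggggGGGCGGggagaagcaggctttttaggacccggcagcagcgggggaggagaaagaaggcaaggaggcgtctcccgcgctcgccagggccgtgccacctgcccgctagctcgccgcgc
Each of the 3 windows held 1 GC box, a motif found in 33.1% of 33469 RefSeq promoters of the same length. Promoter windows of all 10 genes were found, 11 in all, and 6 of these held the motif, among them Igfbp7 with 4 copies and Igf2r with 2. The TATA box TATAAA was found in Igfbp4 alone of the 11 windows (14.2% of all promoters). The E box CACGTG was in Igf1r, Igf2r and Igfbp2 (6.42% of all promoters). CCAAT was in none of the 11, against 37.5% of all promoters. The windows held 7 to 50 CpG dinucleotides, with 7 as the median over all promoters, 20 in Igfbp2, 19 and 7 at the upstream and downstream starts of Igf2, and the most in Igf1r. Igfbp2 and Igfbp5 face each other on chromosome 9 with starts 49.4 kb apart. These are descriptions of the sequence, and the libraries measure no binding to it.

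The line comparison asked whether untreated sensitive rats differ from resistant rats. All 10 IGF genes had higher estimates in FSL vehicle than in FRL vehicle, none past the test (edgeR quasi-likelihood, Benjamini-Hochberg, BH; smallest adjusted p = 0.238, against 0.0681% of all 11750 genes called). Igf2 had a log2 fold change of 2.51 ± 0.70 SE (5.71-fold, 95% confidence interval 1.96-fold to 16.6-fold; adjusted p = 0.245). Igfbp2 had 2.40 ± 0.71 (adjusted p = 0.251). DESeq2 called 0 of the 10 as well, with Igf2 at an adjusted p of 0.0519, and limma-voom called 0. At an unadjusted p under 0.05 there were 6 of 10 (Igf1, Igf2, Igfbp2, Igfbp3, Igfbp5 and Igfbp7), against 13.9% of all genes. The 2 groups did not overlap in 4 of the 10 (Igf1, Igfbp2, Igfbp3 and Igfbp7), against 13.8% of all genes. The median log2 fold change of the 10 was 0.75, and that of all genes -0.0083.

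Among the smaller differences, Igfbp7, a secreted binding protein of vessel walls, was the most even. FRL vehicle 1, 2 and 3 had 51.6, 47.6 and 42.2 CPM, and FSL vehicle 63.2, 59.6 and 87.1 CPM. The highest FRL library was below the lowest FSL library, with a log2 fold change of 0.57 ± 0.15 (adjusted p = 0.238). Igfbp3, the main carrier of IGF in blood, had 6.43, 5.20 and 4.43 CPM in the FRL libraries and 7.46, 7.86 and 15.8 CPM in the FSL vehicle libraries (0.95 ± 0.29, adjusted p = 0.251). Without FSL vehicle 3 its value was 0.52. Igf1, the ligand that microglia and some neurons make in brain, had 3.34, 3.73 and 4.94 CPM in the FRL libraries and 5.51, 7.35 and 11.5 CPM in the FSL vehicle libraries (1.03 ± 0.35, adjusted p = 0.268), from 26 to 82 reads per library. All 10 microglial markers passed the filter. Their mean was 4.84 to 4.94 log2 CPM in FRL vehicle and 5.21 to 5.40 in FSL vehicle, also without overlap. Over the 12 libraries Igf1 had r = 0.814 with the meningeal list described below (permutation p = 0.00172), and 0.512 without FSL vehicle 2 and 3. With the endothelial list it had r = 0.83 (permutation p = 0.00194). The Igf1 line value was 0.44 ± 0.29 with the meningeal covariate and 1.29 ± 0.41 with the choroid plexus covariate. Beyond these fits, the part of these cell types in the Igf1 difference was not tested. Igfbp5, which binds matrix as well as IGF, had 34.3, 18.7 and 20.1 CPM in the FRL libraries and 27.2, 55.8 and 55.6 CPM in the FSL vehicle libraries, with overlap (0.92 ± 0.36, adjusted p = 0.294).

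The receptors differed little between lines. Igf1r averaged 87.9 ± 27.4 CPM in FSL vehicle and 75.7 ± 5.95 CPM in FRL vehicle (log2 fold change 0.22, 95% interval -0.20 to 0.63). Igf2r averaged 179 ± 39.7 and 166 ± 17.0 CPM (0.11, interval -0.21 to 0.44). Within FSL vehicle the 2 receptor genes were lowest in replicate 2, at 59.8 CPM for Igf1r and 135 CPM for Igf2r, which were also the lowest values of the 12 libraries. Igfbp4, an inhibitory binding protein, had 0.08 ± 0.42 and Igfbp6, which prefers IGF2 over IGF1, 0.52 ± 0.47, both with overlapping groups.

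The line values depended on FSL vehicle 3 and FSL vehicle 1. Without FSL vehicle 3, the highest library, Igf2 had a log2 fold change of 1.23 and Igfbp2 1.64. Without FRL vehicle 2, which was low in Prox1, Igf2 had 2.92 and Igfbp2 3.19. Without FSL vehicle 1, the FSL vehicle library lowest in both genes, Igf2 had 2.97 and passed (adjusted p = 0.0343), the sole IGF gene to do so. The share of all genes called in that fit is not given here. The adjusted p of Igf2 ranged from 0.0343 to 0.999 over the alternatives.

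Responders were set beside FSL vehicle to see what goes with a response to LAC. All 10 genes had lower estimates in responders, and none passed the edgeR test (smallest adjusted p = 0.244, against 0% of all genes called). Igf2 was 11.7-fold lower in the estimate (log2 fold change -3.55 ± 0.73, interval -5.17 to -1.93; 48.2 ± 29.4 against 564 ± 584 CPM; adjusted p = 0.244). By unadjusted p it ranked 26 among the 11750 genes. Igfbp2 was 10.1-fold lower (-3.33 ± 0.75, interval -5.00 to -1.67; adjusted p = 0.266) and ranked 47. DESeq2 called both Igf2 (adjusted p = 0.00181) and Igfbp2 (0.00631), while limma-voom called 0 of the 10. At an unadjusted p under 0.05 there were 6 (Igf1, Igf2, Igfbp2, Igfbp3, Igfbp5 and Igfbp7), against 13.8% of all genes. Groups did not overlap in 4 (Igf2, Igfbp2, Igfbp3 and Igfbp7), against 12.5% of all genes. The median of the 10 was -0.72, and that of all genes 0.01. This comparison and that between lines share the FSL vehicle libraries, so that the opposite signs are not independent of each other.

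Of the other binding proteins, Igfbp3 and Igfbp7 did not overlap between the groups. Igfbp3 stood at 6.98, 6.44 and 5.94 CPM in LAC responder 1, 2 and 3, all below the lowest FSL vehicle library (log2 fold change -0.69 ± 0.28, adjusted p = 0.3304; -0.25 without FSL vehicle 3). Igfbp7 stood at 42.6, 54.7 and 52.7 CPM (-0.48 ± 0.15, adjusted p = 0.266; -0.30 without FSL vehicle 3). Igfbp5 stood at 40.9, 21.6 and 17.4 CPM, with responder 1 inside the FSL vehicle range (-0.80 ± 0.36, adjusted p = 0.360; -1.25 without responder 1). Igf1 stood at 6.61, 3.59 and 4.18 CPM (-0.76 ± 0.34, adjusted p = 0.361; -0.43 without FSL vehicle 3), where responder 1 again lay within the FSL range. Igfbp6 averaged 8.97 ± 2.70 against 18.0 ± 10.9 CPM (-1.01 ± 0.47, adjusted p = 0.378; -0.41 without FSL vehicle 3), and LAC responder 1 was its lowest library at 6.24 CPM. The interval of Igf1r was -0.71 to 0.12, that of Igf2r -0.40 to 0.25 and that of Igfbp4 -0.99 to 0.83 on the log2 scale.

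Leaving out FSL vehicle 1 brought Igf2 (-4.004, adjusted p = 0.0177) and Igfbp2 (-3.73, adjusted p = 0.0306) past the threshold, and leaving out FSL vehicle 3 lowered them to -2.27 and -2.57 (adjusted p = 0.514 and 0.745). Without LAC responder 1, which was low in Prox1, Igf2 had -4.17 and Igfbp2 -4.02 (edgeR adjusted p = 0.257 and 0.264). The adjusted p ranged from 0.00181 to 0.998 for Igf2 over all alternatives.

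Non-responders were set beside FSL vehicle to see what goes with LAC where no response was scored. Of the 10 genes 9 had lower and 1 (Igf2r) had a higher estimate, and none passed (edgeR, smallest adjusted p = 0.976, against 0% of all genes; DESeq2 and limma-voom called 0 each). Igf2 had -1.22 ± 0.66 (interval -2.69 to 0.25) and Igfbp2 -1.04 ± 0.67 (interval -2.53 to 0.45). Without FSL vehicle 3 the Igf2 value was 0.06, so that its sign rested on that library, and the Igfbp2 value was -0.27. Igfbp5 was the 1 gene with an unadjusted p under 0.05 (-0.87 ± 0.36), against 4.21% of all genes. It stood at 23.6, 29.5 and 22.7 CPM in the non-responders, which put replicate 2 inside the FSL vehicle range. Igf1 had -0.73 ± 0.35, or -0.40 without FSL vehicle 3. The values of Igfbp3 (-0.20), Igfbp4 (-0.18), Igfbp6 (-0.14), Igfbp7 (-0.23), Igf1r (-0.04) and Igf2r (0.04) had 95% intervals that included 0. Groups overlapped in all 10, against 7.78% of all genes without overlap. The median of the 10 was -0.21, and that of all genes -0.0039.

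Setting responders beside non-responders compares rats of 1 line that all had LAC. Here the libraries of FSL vehicle enter through the shared estimate of spread, the expression filter and the scaling, and not through a group mean. In the fits with marker covariates they also enter through the shared slope of the covariate. Igf2 was 4.999-fold lower in responders (log2 fold change -2.32 ± 0.70, interval -3.88 to -0.77) and Igfbp2 4.90-fold lower (-2.29 ± 0.74, interval -3.92 to -0.66). Neither passed (edgeR adjusted p = 0.992 for both, with 0% of all genes called; DESeq2 and limma-voom called 0). They were the 2 genes of the 10 with an unadjusted p under 0.05, against 3.14% of all genes, and ranked 25 and 44 among 11750. Groups did not overlap in 4 of the 10 (Igf2, Igfbp2, Igfbp3 and Igfbp7), all lower in responders, against 11.3% of all genes. Leaving out each library in turn gave Igf2 values of -2.95 to -2.08, so that no single library decided the direction. For Igfbp2 the range was -2.98 to -1.81, the first without LAC responder 1 and the last without LAC non-responder 1. Igf1 was level between the groups (4.79 ± 1.60 against 4.89 ± 1.68 CPM; -0.03, interval -0.80 to 0.74), and -0.33 without LAC responder 1. Igfbp3 had -0.49 ± 0.28 and Igfbp7 -0.26 ± 0.15. Igfbp6 had -0.87 ± 0.47, or -0.52 without LAC non-responder 2. Igf1r had -0.26, Igf2r -0.11, Igfbp4 0.10 and Igfbp5 0.08, the last turning to -0.37 without LAC responder 1. The medians were -0.26 for the 10 genes and 9.72e-04 for all genes.

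**Figure D2:**
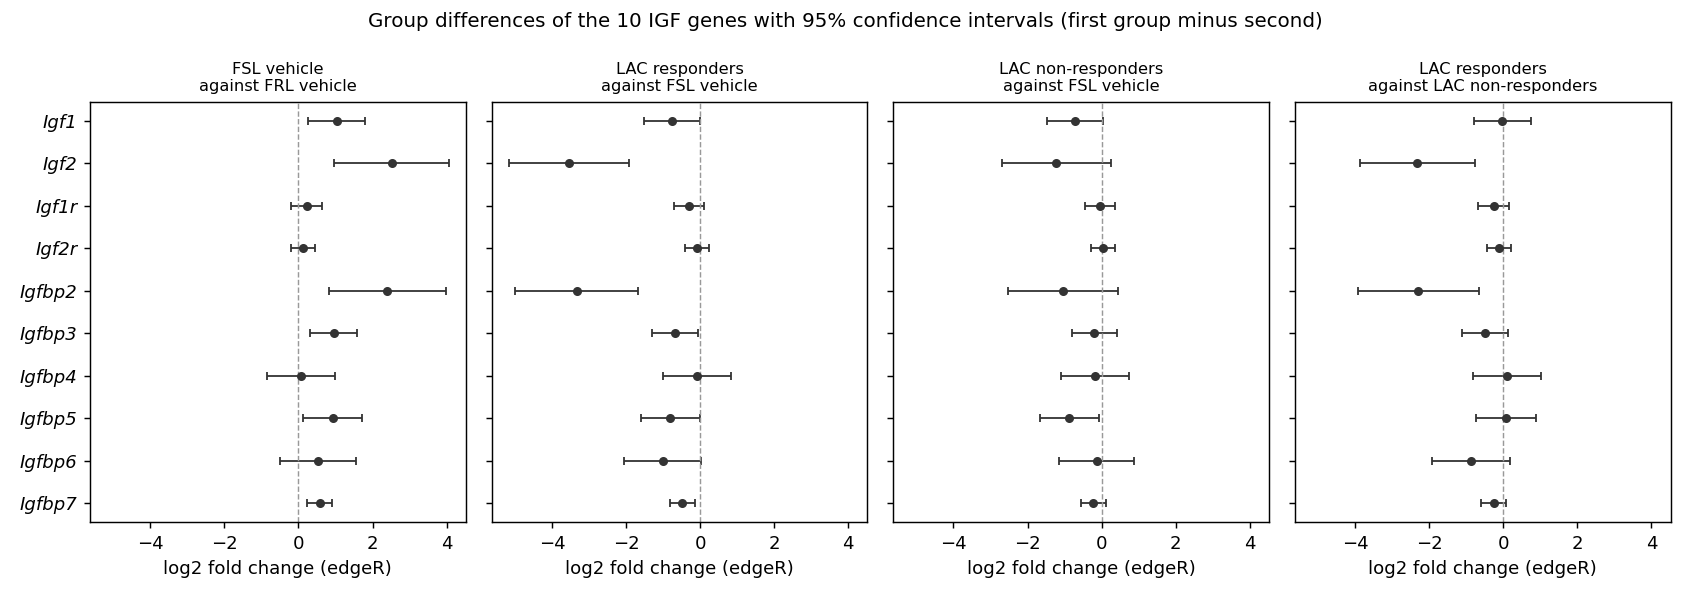
edgeR log2 fold change of each IGF gene (points) with its 95% confidence interval (bars) in the 4 comparisons, as the first group minus the second. Igf2 and Igfbp2 lie farthest from 0 in all 4 panels, such as -3.55 and -3.33 in responders against FSL vehicle, and have the widest intervals.

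A single test of any difference among the 4 groups gave 0 of 10 genes past the threshold (edgeR, smallest adjusted p = 0.364 for Igf2, against 0.0255% of all genes called) and 4 at an unadjusted p under 0.05 (Igf2, Igfbp2, Igfbp3 and Igfbp7), against 9.02% of all genes. The spread that edgeR estimated for Igf2 and Igfbp2, as a biological coefficient of variation, was 0.546 and 0.579, against 0.178 in common over all genes and 0.134 for Igf2r.

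The ratio of Igfbp2 to Igf2 varied less than either gene, each of which varied about 40-fold. There were 16.0 to 53.4 Igfbp2 reads per 100 Igf2 reads, a 3.33-fold range. The ratio averaged 29.4 ± 12.2 in FRL vehicle, 36.9 ± 10.4 in FSL vehicle, 33.8 ± 17.0 in LAC non-responders and 33.7 ± 7.31 in LAC responders (SD, n = 3), with all groups overlapping. The ratio depends on the lengths of the transcripts and is compared between libraries only. It was highest in LAC non-responder 1 and lowest in FRL vehicle 3.

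On log2 CPM over the 12 libraries Igf2 and Igfbp2 had a Pearson r of 0.95 (permutation p = 1e-05, the smallest that 100000 permutations can give; adjusted p = 4.5e-04 over 45 pairs of IGF genes) and a Spearman rho of 0.902 (permutation p = 1.8e-04). The r was 0.906 without FSL vehicle 3 and LAC responder 2, the libraries farthest from the median of Igf2, and 0.84 for deviations from the group means. Igfbp3 and Igfbp7 formed the next pair (r = 0.876, permutation p = 3.7e-04, adjusted p = 0.00833; rho = 0.895, permutation p = 2.6e-04), with r = 0.636 without FRL vehicle 3 and FSL vehicle 3. Of 45 pairs 37 had a positive r, and 4 passed an adjusted p of 0.05 by Pearson's r and 2 by Spearman's rho. No negative pair passed, the lowest being Igfbp4 beside Igfbp5 with r = -0.56 (permutation p = 0.0598, adjusted p = 0.128; rho = -0.53, permutation p = 0.0792; r = -0.60 without FSL vehicle 1 and LAC responder 1). Libraries of 1 group are not independent of their treatment, so these p-values mix group and library differences.

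**Figure D3:**
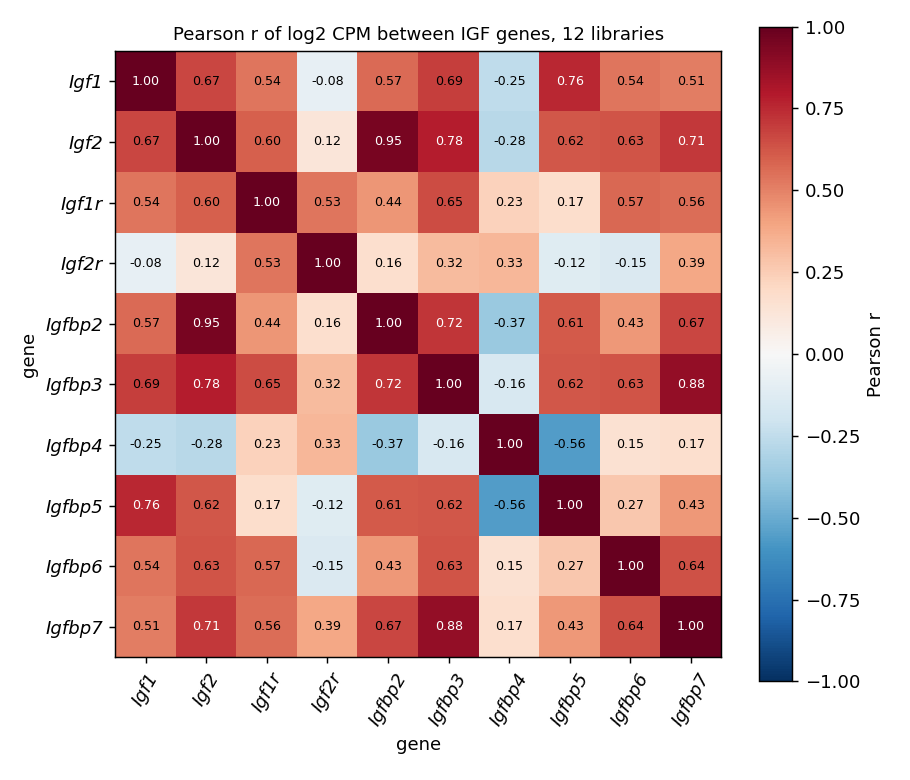
Pearson r of log2 CPM over the 12 libraries for every pair of IGF genes, from -1 (blue) to 1 (red). Igf2 and Igfbp2 have r = 0.95, and Igfbp4 has negative values with 5 of the other 9 genes, the lowest -0.56 beside Igfbp5.

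Markers of tissue next to the dentate gyrus differed between libraries, and Igf2 and Igfbp2 moved with the meningeal ones. Of 15 meningeal and fibroblast markers 14 were in the files and 12 passed the filter, with Col1a2 at 0 in all libraries. Their summed level was 246 to 384 CPM in FRL vehicle, 294 to 2133 in FSL vehicle, 280 to 633 in LAC non-responders and 213 to 361 in LAC responders. Of 12 choroid plexus markers all were in the files and 11 passed, with Otx2 at 0 in all libraries. Their sum was 144 to 204 CPM in FRL vehicle, 197 to 4814 in FSL vehicle, 267 to 8019 in LAC non-responders and 171 to 237 in LAC responders. Enpp2 made up most of the sum in FRL vehicle (111 to 165 CPM) and LAC responders (141 to 218 CPM). In those 2 groups Folr1 stood at 0 to 0.979 CPM and Sostdc1 at 0 to 0.809 CPM, so the sums there say little of choroid plexus. Ttr, the choroid plexus transthyretin gene, stood at 2781, 289 and 5384 CPM in FSL vehicle 1, FSL vehicle 3 and LAC non-responder 1, and at 3.06 to 40.1 CPM elsewhere. No IGF gene stands in either list.

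Over the 12 libraries Igf2 had r = 0.865 with the mean log2 CPM of the meningeal list (permutation p = 3.3e-04; rho = 0.804, permutation p = 0.0028) and r = 0.687 without FSL vehicle 2 and 3. Igfbp2 had r = 0.75 (permutation p = 0.00476; rho = 0.664, permutation p = 0.0216) and r = 0.485 without those libraries, so that its relation rested in part on them. With the choroid plexus list neither passed. Igf2 had r = 0.441 there (permutation p = 0.157, adjusted p = 0.224; rho = 0.615, permutation p = 0.0370) and Igfbp2 r = 0.562 (permutation p = 0.0581, adjusted p = 0.0969; rho = 0.685, permutation p = 0.0172). Without FSL vehicle 1 and LAC non-responder 1, the libraries farthest in that list, r rose to 0.78 for Igf2 and 0.72 for Igfbp2. Slc13a4 of that list was highest in FSL vehicle 3 (192 CPM), the library highest in meningeal markers. It was lowest in LAC responder 3 and 2 (4.32 and 5.57 CPM), and stood at 48.0 and 78.9 CPM in FSL vehicle 1 and LAC non-responder 1. The higher r may therefore reflect meningeal tissue in part, which was not tested. LAC non-responder 1 and FSL vehicle 1 were low in meningeal markers (3.21 and 3.32 log2 CPM) and highest in choroid plexus markers (7.36 and 6.65 log2 CPM), with Igf2 at 241 and 138 CPM. LAC responder 2 and 3 were lowest in meningeal markers (2.76 and 3.00 log2 CPM) and low in choroid plexus markers (1.07 and 1.32). Igf2r had r = 0.751 with the choroid plexus list (permutation p = 0.00366; rho = 0.741, permutation p = 0.00762), and 0.515 without FSL vehicle 1 and LAC non-responder 1. Of 40 relations between the 10 genes and 4 marker lists 22 passed an adjusted p of 0.05 by Pearson's r and 11 by Spearman's rho, where Igfbp2 with the meningeal list did not (adjusted p = 0.0602).

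The mean levels of endothelial markers, and of pericyte and smooth muscle markers, moved with both ligands and several binding proteins. By Pearson's r 7 of the 10 genes passed an adjusted p of 0.05 with each list, and by Spearman's rho 4 and 2. Igf2 had r = 0.837 with the endothelial and 0.819 with the pericyte list (permutation p = 7.3e-04 and 9.7e-04). Without the 2 libraries farthest in these lists r was 0.642 and 0.59. Igfbp2 had r = 0.717 and 0.694 (0.565 and 0.506 without those libraries), and Igf1 0.83 and 0.78. Igfbp3 had r = 0.905 with the endothelial list (permutation p = 8e-05, adjusted p = 0.0032; rho = 0.832, permutation p = 0.00141; r = 0.713 without the 2 libraries farthest in that list). Igfbp6 had r = 0.829 with the list of pericytes and smooth muscle (permutation p = 6.1e-04; rho = 0.65, permutation p = 0.0267; r = 0.659 without the 2 farthest). All 8 endothelial markers in the files and all 9 pericyte markers passed the filter. The endothelial sum was 398 to 1006 CPM in FSL vehicle, 300.3 to 365 in FRL vehicle, 325 to 577 in LAC non-responders and 333 to 375 in LAC responders. The pericyte sum was 266 to 1006 CPM in FSL vehicle, 216 to 252 in FRL vehicle, 240 to 449 in LAC non-responders and 243 to 265 in LAC responders.

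**Figure D4:**
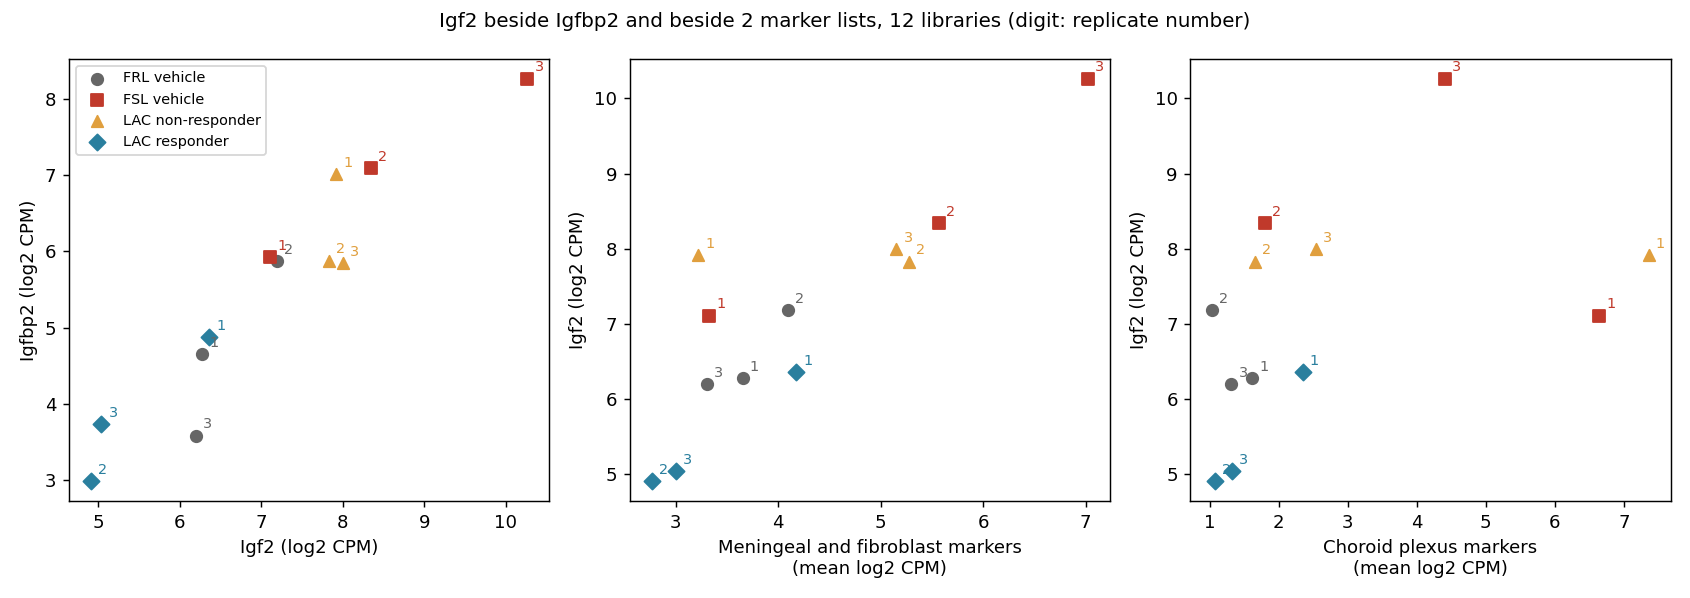
Igfbp2 against Igf2 (left), and Igf2 against the mean level of meningeal and fibroblast markers (middle) and of choroid plexus markers (right), all in log2 CPM, 1 point per library with its replicate number. LAC non-responder 1 and FSL vehicle 1 sit above the other libraries of like meningeal level (3.21 and 3.32) and at the far right for choroid plexus markers (7.36 and 6.65).

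With marker levels as covariates in the fit, the group differences of Igf2 and Igfbp2 were smaller. In responders against FSL vehicle Igf2 went from -3.55 to -1.85 ± 0.47 with the meningeal covariate and to -0.49 ± 0.34 with the meningeal and choroid plexus covariates together. The choroid plexus covariate alone left it at -3.55. Igfbp2 went from -3.33 to -2.36 and to -0.79 ± 0.78. In responders against non-responders Igf2 went from -2.32 to -1.77 ± 0.40 and to -0.67 ± 0.29, and Igfbp2 from -2.29 to -2.06 and to -0.67 ± 0.68. Between lines Igf2 went from 2.51 to 0.98 and then to -0.38 ± 0.33, and Igfbp2 from 2.40 to 1.54 and to -0.06 ± 0.74. No IGF gene passed with any of these covariates. Without the 3 libraries of highest Ttr, Igf2 had -2.33 in responders against non-responders and -2.75 against FSL vehicle, where FSL vehicle was left with 1 library and was assumed to vary like the other groups. Marker levels moved with the groups, and beyond these fits their part in the differences was not tested.

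**Figure D5:**
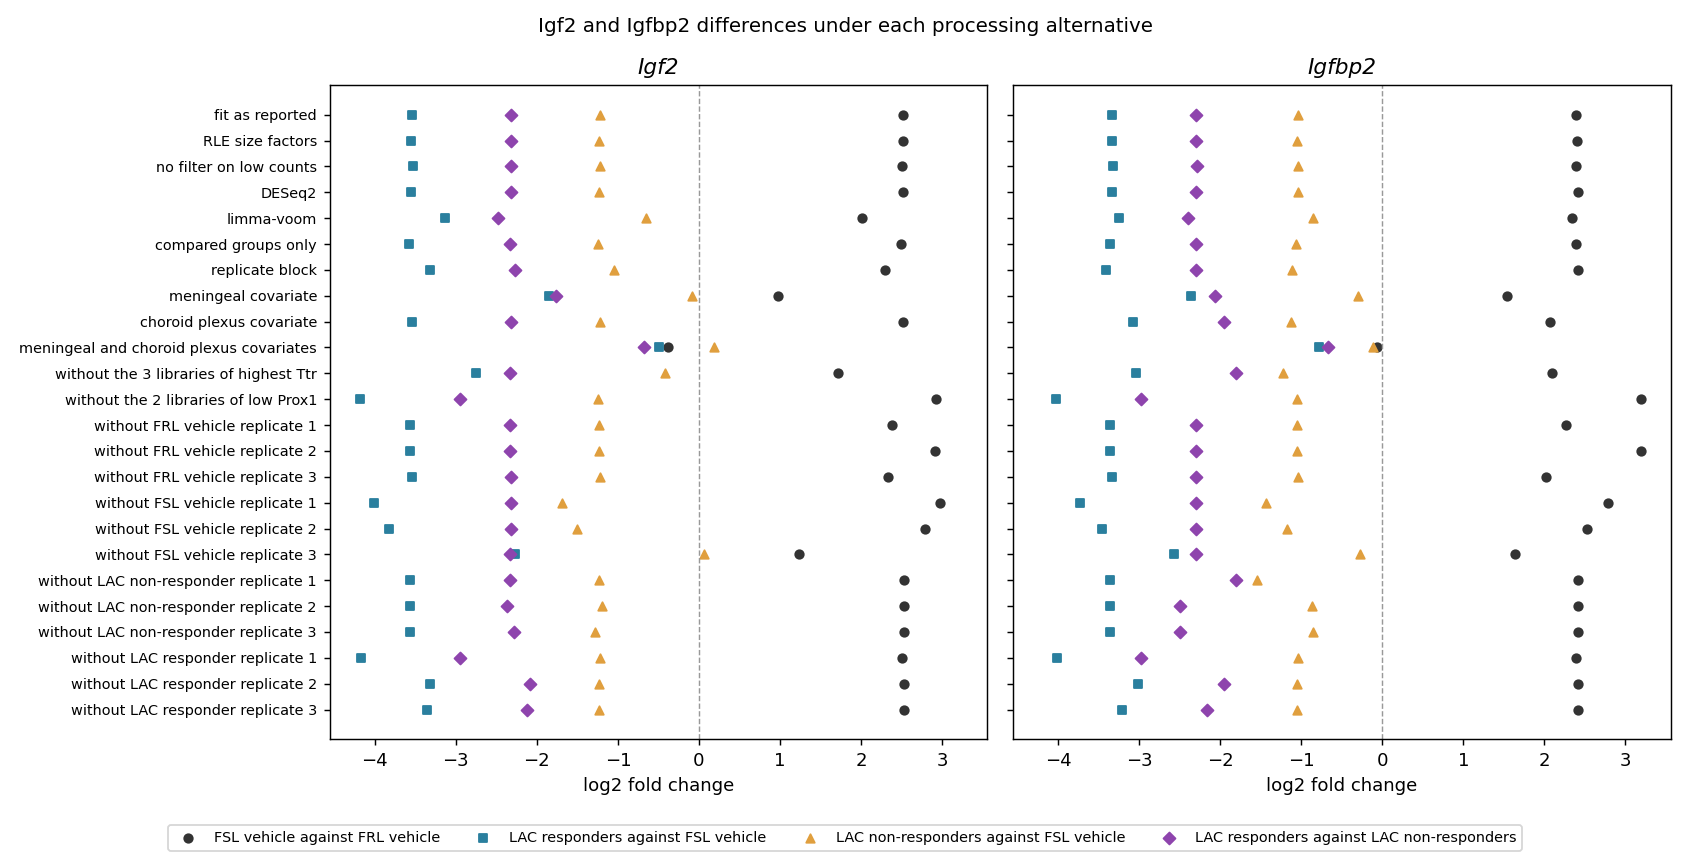
log2 fold change of Igf2 (left) and Igfbp2 (right) in the 4 comparisons (colours) under the fit as reported and each alternative. Between lines and in both responder comparisons the points come nearest to 0 with the meningeal and choroid plexus covariates together, such as -0.49 for Igf2 in responders against FSL vehicle.

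The genes whose log2 CPM was most like that of each IGF gene over the 12 libraries were taken as the 3 highest Pearson r among 11749 others. For Igf2 they were B4galt1 (0.973), Dab2 (0.972) and Mpzl2 (0.970). For Igfbp2 they were Slc2a12 (0.977), Thbs2 (0.966) and B4galt1 (0.960), so that B4galt1, a galactosyltransferase of the Golgi, stood on both lists. Igfbp3 was nearest to Rbpms2 (0.961), Ecm1 (0.952) and Casp1 (0.947), and Igfbp7 to Swap70 (0.954), Pyroxd2 (0.936) and Cd97 (0.932). Igf1 was nearest to Map3k1 (0.941), Lnx2 (0.937) and Slco2b1 (0.934). Igfbp4 was nearest to Nts (0.952), the neurotensin gene, Pou3f3 (0.918) and Sec14l1 (0.916), and Igfbp5 to Adamtsl3 (0.923), Hmcn1 (0.916) and Misp (0.903). Igfbp6 was nearest to Adamts15 (0.929), Ager (0.927) and Fam43a (0.923). The receptors Igf1r and Igf2r were nearest, in turn, to Axin2 (0.941), Appl2 (0.940) and Alkbh5 (0.939), and to Urb1 (0.943), Vwa3a (0.901) and Fbxl13 (0.883).

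Igfbp4 had the largest spread within groups relative to its group differences. It stood at 62.8, 23.6 and 33.6 CPM in FSL vehicle 1, 2 and 3 and at 18.9, 55.9 and 38.3 CPM in LAC responder 1, 2 and 3, while its group means lay between 35.1 and 39.97 CPM. Igfbp6 stood at 7.12, 23.5 and 18.6 CPM in the non-responders, where replicate 1, the library low in meningeal markers, was the lowest.

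Other genes of the IGF pathway were read from a list of 58, of which 55 were in the files and 47 were tested. None passed in any of the 4 comparisons by edgeR. Between lines 3 were higher and 6 lower at an unadjusted p under 0.05, and DESeq2 called 2 (Htra3 and Adamts1). In responders against FSL vehicle 2 were higher and 5 lower, and DESeq2 called 1 (Adamts1). In non-responders 0 were higher and 2 lower, and in responders against non-responders 0 and 1, with 0 by DESeq2. limma-voom called 0 in each. The share of all genes that DESeq2 called is not given here. The shares of all genes at that unadjusted p are the 13.9%, 13.8%, 4.21% and 3.14% given above, and the 9, 7, 2 and 1 of 47 lie near them. The median log2 fold change of the 47 was -0.02, -0.0071, 0.0073 and -0.0067 in the 4 comparisons, close to that of all genes.

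Of 9 secreted genes tested 8 had higher estimates in FSL vehicle than in FRL vehicle (median 0.72), and 5 of 25 cascade genes (median -0.14), against 48.4% of all genes. The difference between these lists was not tested. Examples chosen after their values were seen are Adamts1, a secreted metalloprotease (34.6 ± 13.1 against 15.2 ± 5.39 CPM, log2 fold change 1.18 ± 0.30), Htra3, a secreted serine protease (23.4 ± 19.7 against 5.49 ± 0.932 CPM, 2.08 ± 0.61), and Timp3, an inhibitor of matrix proteases (207 ± 170 against 67.4 ± 11.1 CPM, 1.62 ± 0.51). The insulin receptor Insr had 0.05 ± 0.16, its adaptor Irs2 -0.02 ± 0.12 and the kinase Akt1 0.04 ± 0.10. Next to Igf2 on the chromosome lie H19, an imprinted RNA that had 29 reads in all 12 libraries together, and Ins2, which had 0. Igfals, the partner of circulating IGF complexes, and the binding protein Igfbp1 had 11 reads each over all libraries and were not tested.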

How the data were processed

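RNA from ventral dentate gyrus was made into stranded, ribosomal-RNA-depleted libraries, per the labels. The deposited values are whole-number read counts for 17172 gene symbols, with 5 summary lines. HTSeq 0.6.1, TopHat2 2.0.9 and the build rn5 appear in the submitters' processing notes, beside Trimmomatic 0.33, FastQC 0.11.3 and edgeR 3.12.0. Neither the annotation nor whether counting used strand is stated there, so a gene's reads may include those of an antisense or overlapping partner. Reads outside genes made up 47.7% to 52.7% of the lines' total, ambiguous reads 0.0756% to 0.106% and multiply aligned reads 24.3% to 28.4%, and all were left out.

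Counts were tested with edgeR 4.0.16 in R 4.3.3 (TMM factors of 0.975 to 1.04, default filter by group, robust quasi-likelihood fit of all 12 libraries, two-sided, BH over 11750 genes, threshold 0.05) and checked on simulated counts. CPM use TMM-scaled totals, and log2 CPM a prior count of 2. Libraries are called biological replicates, and p-values set differences between groups against the spread between libraries. Whether this is a spread between rats is not known, since the labels do not say whether 1 library is 1 rat. Alternatives were DESeq2 1.42.0, limma-voom (limma 3.58.1), other scaling, no filter, compared groups only, marker covariates, a replicate block and left-out libraries. The fit with both marker covariates and the block within FSL vehicle and non-responders were added after seeing the data.

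All 10 IGF genes were named in every comparison, along with the 3 genes of most like pattern. The genes and lists were chosen with earlier results of these data known. Same-numbered libraries of FSL vehicle and non-responders correlated at 0.581, 0.212 and 0.426 in their deviations from group means, which meets the rule used for pairing. The labels name no pairing, and no other 2 groups met the rule. Replicate 1 of both groups was also highest in choroid plexus markers (6.65 and 7.36 log2 CPM), and the part of this in the correlation was not tested. No 2 libraries of a group were alike within sampling noise (chi-square per degree of freedom 5.54 to 28.3).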

Additional observations from a re-analysis of the deposited data

How the results depend on the processing

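The number of IGF genes called stayed at 0 under 22 of 23 alternatives between lines, 21 of 23 in responders against FSL vehicle, 24 of 24 in non-responders, 23 of 23 in responders against non-responders and 19 of 20 for any difference among the groups. DESeq2 called 2 in responders against FSL vehicle. With 1 library left out at a time the count ranged from 0 to 1 between lines, 0 to 2 in responders against FSL vehicle and 0 to 1 for any difference, each maximum without FSL vehicle 1. The shares of all genes called under these alternatives are not given here. The replicate block gave 0 calls in every comparison. The block within FSL vehicle and non-responders alone changed no call and gave -0.67 for Igf2. Of 40 log2 fold changes 15 kept their sign under all alternatives run, and 76 of 930 alternative values had the other sign.

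With both marker covariates the values that turned were Igf1r -0.32, Igf2 -0.38, Igf2r -0.20 and Igfbp2 -0.062 between lines; Igf1 0.033, Igf1r 0.28, Igf2r 0.23 and Igfbp3 0.22 in responders against FSL vehicle; Igf1r 0.15, Igf2 0.18, Igfbp3 0.14 and Igfbp6 0.030 in non-responders; and Igf1 0.45, Igf1r 0.12, Igf2r 0.12, Igfbp3 0.073 and Igfbp4 -0.64 in responders against non-responders. The meningeal covariate turned Igfbp6 (-0.31 between lines, 0.042 in responders, 0.24 in non-responders), Igf1r (0.031), Igf2r (-0.011) and Igfbp3 (0.043) in non-responders, and Igf1 (0.36) and Igfbp4 (-0.31) in responders against non-responders. The choroid plexus covariate turned Igf2r (-0.14 between lines, 0.16 in responders, 0.072 against non-responders), Igfbp4 (-0.11 between lines, 0.10 in responders) and Igfbp5 (-0.040 against non-responders). Without the 3 libraries of highest Ttr the turned values were Igf1r -0.33, Igf2r -0.30 and Igfbp4 -0.67 between lines, Igf1r 0.26, Igf2r 0.34 and Igfbp4 0.67 in responders, Igf1r 0.60, Igfbp3 0.33, Igfbp4 0.67, Igfbp6 0.60 and Igfbp7 0.058 in non-responders, and Igfbp4 -5.82e-04 in responders against non-responders. Without the 2 of low Prox1 they were Igfbp4 -0.020 between lines and 0.24 in responders, and Igfbp5 -0.37 against non-responders. limma-voom turned Igf1r (0.0084 in non-responders), Igfbp4 (-0.0029 between lines, -0.019 against non-responders) and Igfbp5 (-0.0062 against non-responders), and the replicate block Igf1 (5.17e-04 against non-responders). The cause was not tested.

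Ranges with 1 library left out that crossed 0 were, between lines, -0.018 to 0.43 for Igf1r, -0.017 to 0.28 for Igf2r, -0.40 to 0.36 for Igfbp4 and -0.073 to 0.81 for Igfbp6. In responders against FSL vehicle they were -0.24 to 0.058 for Igf2r and -0.49 to 0.40 for Igfbp4. In non-responders they were -0.25 to 0.20 for Igf1r, -1.68 to 0.064 for Igf2, -0.13 to 0.17 for Igf2r, -0.38 to 0.24 for Igfbp3, -0.45 to 0.30 for Igfbp4 and -0.50 to 0.47 for Igfbp6. In responders against non-responders they were -0.33 to 0.27 for Igf1, -0.30 to 0.43 for Igfbp4 and -0.37 to 0.29 for Igfbp5. Depth limits Igf1 and Igfbp3 most, with as few as 26 reads in a library.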
